A study of Mus musculus with 8 samples.

Results

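Utrophin (Utrn), dystrophin (Dmd), dystrophin-related protein 2 (Drp2), alpha-dystrobrevin (Dtna) and beta-dystrobrevin (Dtnb) are paralogs, and the H3K56ac peaks at these 5 genes were examined in muscle stem cells (MuSCs). The genes were chosen by name among 21938 protein-coding genes of the GENCODE annotation, and their regions were taken as each gene plus 20 kb on either side. Of the 105600 merged peaks, 129 lay in these regions, which was 0.122% of the list. H3K56ac is the acetylation of lysine 56 of histone H3, a mark that the deacetylase SIRT6 removes. ChIP-seq, the sequencing of chromatin precipitated with an antibody to the mark, and sequencing of input chromatin were each done in 2 replicates of Control and 2 of Sirt6mKO MuSCs, giving 8 libraries in 4 groups. All mice were of the C57BL/6 background and all cells were freshly isolated MuSCs, the cells from which muscle fibers regenerate. The study's Sirt6mKO mice carried floxed Sirt6 alleles and a Cre recombinase driven by the Pax7 locus. This Cre is active in the whole muscle lineage and not in MuSCs alone. The comparison samples are labelled only Control. The study calls such mice wild type in places and elsewhere describes its controls as floxed mice without the Cre.

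A single list of merged intervals was analysed. It gave a chromosome, a start and an end for each peak, carried no genotype and no value for any library, and its score column was 0 throughout. The depth behind a peak is therefore unknown, Sirt6mKO cannot be told apart from Control, no value below has a replicate error, and no test between samples was possible. Which libraries entered the merge is not stated, so covered shares describe the merged list and may rest on either genotype or on both. The study reports a global rise of H3K56ac peaks in Sirt6mKO MuSCs. At Utrn it describes a raised peak at an enhancer inside the gene and none near the proximal promoter. How much of the coverage below rests on Sirt6mKO cannot be read from the list. The labelled cell type was checked against markers: 12 of 12 MuSC markers, Pax7, Myf5 and Myod1 among them, had a promoter peak, against a background of 65.4% of all protein-coding genes. The study sorted its MuSCs by the products of Itga7 and Cd34 or by a Pax7 reporter. These genes are among the 12 and are not an independent check. Promoter peaks were also present at 3 of 4 endothelial, 2 of 3 fibro-adipogenic and 2 of 4 myofiber markers, and at 0 of 4 blood cell markers. The study's isolation had removed cells carrying Sca1, CD45 or CD31, the products of Ly6a, Ptprc and Pecam1, before the list was made. Of these genes Pecam1 had a promoter peak, and Ly6a and Ptprc had no peak. The part of other cell types in the peaks of the 5 genes was not tested.

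Dystrophin and utrophin are large cytoskeletal proteins that link actin to the dystroglycan complex in the muscle membrane, and utrophin is enriched at neuromuscular junctions and can stand in for dystrophin where that is lost. Dystrobrevins lack the actin-binding part and bind dystrophin, utrophin and the syntrophins. DRP2 is a shorter relative best known from Schwann cells. Dmd is a textbook case of alternative promoters, with full-length forms made from its 5′ end and shorter forms from starts inside its introns.

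The sequences below carry the comparison of promoters and of the enhancer that the study examined by ChIP and named the downstream utrophin enhancer (DUE). All were read from the GRCm38 genome, the same build as mm10, in the direction of transcription, and coordinates count from 1. The first is the product of the study's ChIP primers for this enhancer, at chr10:12857742-12857915 on the minus strand, with the primers in capitals.
Utrn ChIP product: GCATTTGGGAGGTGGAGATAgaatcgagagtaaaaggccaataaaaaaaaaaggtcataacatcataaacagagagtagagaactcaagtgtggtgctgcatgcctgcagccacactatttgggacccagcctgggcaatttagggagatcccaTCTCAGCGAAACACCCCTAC
The next stretch begins closer to the promoter, at chr10:12858117-12858312 on the minus strand, and holds 2 matches to the AP-1 motif TGANTCA, shown in capitals. The study describes an AP-1 site in the enhancer, and several of its guide RNAs for the enhancer match bases of this stretch. The 2 matches lie 3486 and 3555 bp from the annotated start of transcript Utrn-201. The ChIP product, which lies beside this stretch, holds 0 AP-1 matches.
Utrn stretch with AP-1 matches: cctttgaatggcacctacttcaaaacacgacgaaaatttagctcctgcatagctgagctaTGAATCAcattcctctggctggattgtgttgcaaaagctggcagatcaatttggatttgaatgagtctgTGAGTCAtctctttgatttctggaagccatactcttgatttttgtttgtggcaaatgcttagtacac
The 30 bases before the annotated start of transcript Utrn-201, chr10:12861736-12861765 on the minus strand, are shown because that start proved to be an exon boundary. Capitals mark the AG of a splice acceptor.
Utrn-201 start: tctactcaatactttctcttttcctgttAG
The promoter sequences are the 250 bases before the first start of each cluster. Capitals mark matches on either strand to 3 motifs that were searched: AP-1 (TGANTCA), the N-box core TTCCGG, which ETS factors bind in the utrophin promoter, and the E-box CAGCTG, which myogenic factors bind. They are chr10:12869366-12869615 and chr10:12548880-12549129 on the minus strand for Utrn, chrX:82948620-82948869 and chrX:85048045-85048294 on the plus strand for Dmd, chrX:134404301-134404550 on the plus strand for Drp2, and chr12:3572131-3572380 on the plus strand for Dtnb.
Utrn-205 promoter: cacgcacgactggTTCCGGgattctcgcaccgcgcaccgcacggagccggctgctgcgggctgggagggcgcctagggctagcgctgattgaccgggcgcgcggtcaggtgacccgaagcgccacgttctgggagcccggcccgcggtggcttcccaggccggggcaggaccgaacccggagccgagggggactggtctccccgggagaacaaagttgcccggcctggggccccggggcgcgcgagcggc
Utrn-206 promoter: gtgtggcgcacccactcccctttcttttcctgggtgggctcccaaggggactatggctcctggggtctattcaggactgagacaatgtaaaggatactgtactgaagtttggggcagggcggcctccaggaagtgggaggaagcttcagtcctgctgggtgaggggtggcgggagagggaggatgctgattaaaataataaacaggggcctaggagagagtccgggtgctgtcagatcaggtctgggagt
Dmd-203 promoter: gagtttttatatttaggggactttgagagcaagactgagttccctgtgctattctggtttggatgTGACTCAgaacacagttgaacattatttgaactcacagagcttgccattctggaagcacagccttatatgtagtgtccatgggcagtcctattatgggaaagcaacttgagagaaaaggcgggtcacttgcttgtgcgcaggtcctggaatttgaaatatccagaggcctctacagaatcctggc
Dmd-201 promoter: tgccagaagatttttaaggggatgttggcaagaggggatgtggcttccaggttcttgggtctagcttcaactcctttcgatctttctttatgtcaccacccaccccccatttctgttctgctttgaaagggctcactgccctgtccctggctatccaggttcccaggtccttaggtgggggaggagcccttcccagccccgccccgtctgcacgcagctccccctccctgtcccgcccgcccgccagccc
Drp2-202 promoter: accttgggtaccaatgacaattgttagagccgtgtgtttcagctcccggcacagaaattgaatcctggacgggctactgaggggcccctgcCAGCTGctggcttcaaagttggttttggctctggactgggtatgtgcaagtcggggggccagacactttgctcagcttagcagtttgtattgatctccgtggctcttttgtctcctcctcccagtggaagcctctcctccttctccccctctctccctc
Dtnb-225 promoter: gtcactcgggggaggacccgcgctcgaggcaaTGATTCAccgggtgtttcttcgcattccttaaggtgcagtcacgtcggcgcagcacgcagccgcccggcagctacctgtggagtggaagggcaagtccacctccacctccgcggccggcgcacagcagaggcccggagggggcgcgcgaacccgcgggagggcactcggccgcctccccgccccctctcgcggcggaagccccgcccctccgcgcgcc

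The 129 peaks were spread very unevenly over the family. Utrn (chr10:12382188-12869365, 487 kb, minus strand) held 60 peaks in its gene and flanks, and Dmd (chrX:82948870-85206141, 2257 kb), the longest of the 5 genes, held 34. Drp2 (chrX:134404551-134456573, 52.02 kb) held 15, Dtnb (chr12:3572381-3781796, 209 kb) held 13 and Dtna (chr18:23415135-23659715, 245 kb) held 7. Each peak was put in the first class that it met. By that order 20 lay within 1 kb of an annotated start of the gene, 9 of the others lay in the flanks, 9 of those left touched an exon, 20 of the rest overlapped intron 1 and 71 lay in other introns. Promoter peaks that also overlapped an exon or intron 1 are counted with the promoters. The 9 flank peaks belonged to Utrn (4), Dtna (3) and Dtnb (2).

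**Figure D1:**
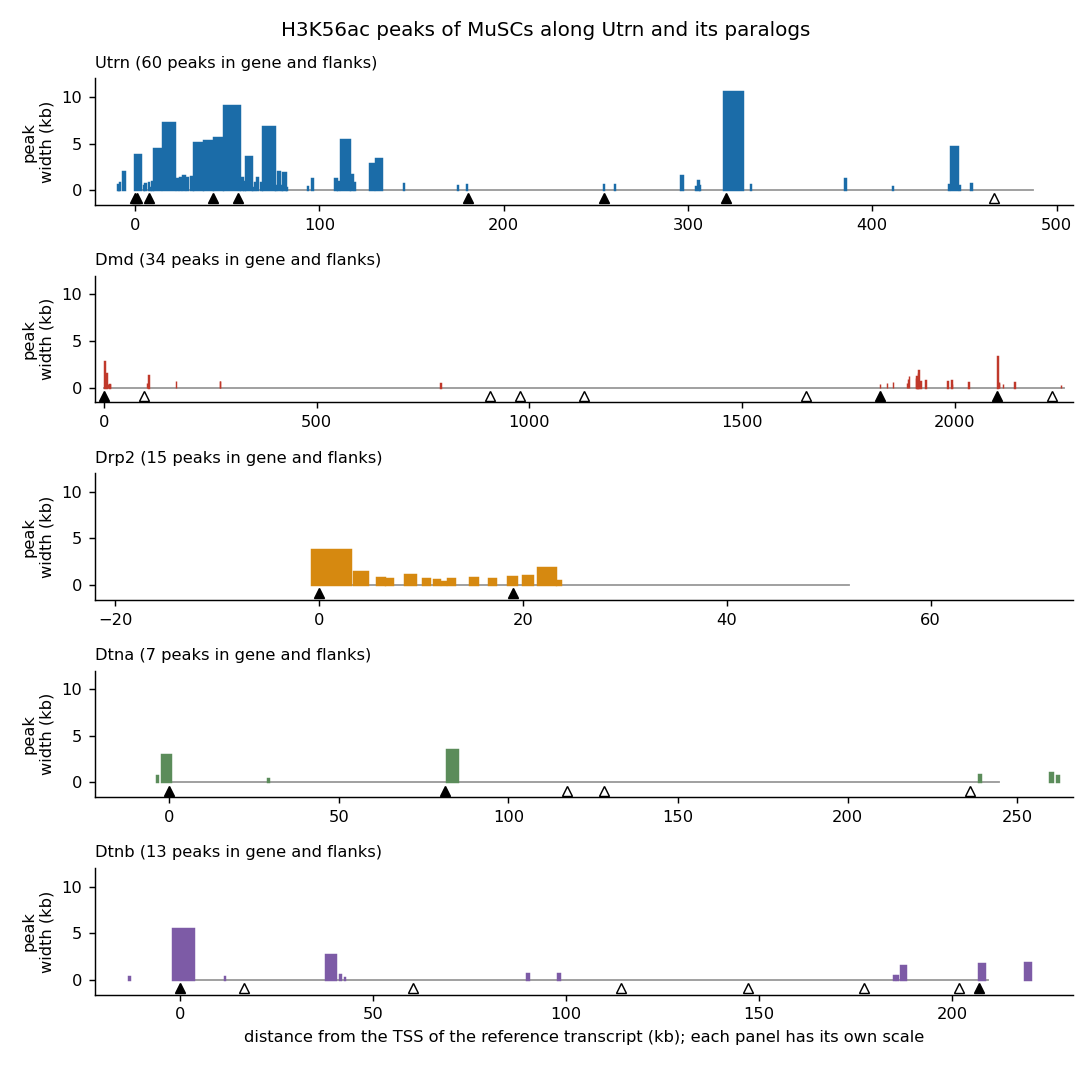
Each bar is a merged H3K56ac peak, placed by its distance from the TSS of the reference transcript (x axis, kb, a separate scale for each gene), with bar width and height both equal to peak width (y axis, kb). Triangles mark promoter clusters, filled where a peak lies within 1 kb and open where none does. Utrn peaks crowd the first 120 kb, Dmd peaks sit at both ends of the gene with 1033 kb free of peaks between them, and Drp2 peaks end 23.8 kb downstream of the TSS.

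Peaks covered 24.2% of the Utrn gene and 31.4% of Drp2, but 6.56% of Dtnb, 2.36% of Dtna and 1.35% of Dmd. The median over all protein-coding genes was 7.82%. Covered share falls with gene length, so each gene was also ranked among genes within 20% of its own length. Utrn exceeded 93.2% of 205 such genes, whose median was 2.10%, and Drp2 exceeded 89.3% of 1824 genes. Dtnb (55.3% of 519 genes) was near the middle, Dtna exceeded 35.9% of 437 genes, and Dmd exceeded 3 of the 6 genes of its length.

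Dmd and Drp2 are on chromosome X, where the list held 12.3 peaks per Mb against a median of 42.1 per Mb over the autosomes. The median covered share of a gene there was 0%. The mice were males, with a single X chromosome, and the part of copy number in these values was not tested. Dmd had 15.1 peaks per Mb of gene, close to the chromosome, and Drp2 had 288 per Mb. Among the other 947 protein-coding genes of chromosome X, Drp2 exceeded 93.3% in covered share and Dmd 58.4%. Utrn had 115 peaks per Mb, Dtnb 52.5 and Dtna 16.4. The X-linked and autosomal members thus did not separate by chromosome, since by gene body Drp2 was the most and Dmd the least covered of the 5. With the flanks of 20 kb included, Utrn (23.3%) was above Drp2 (18.4%).

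**Figure D2:**
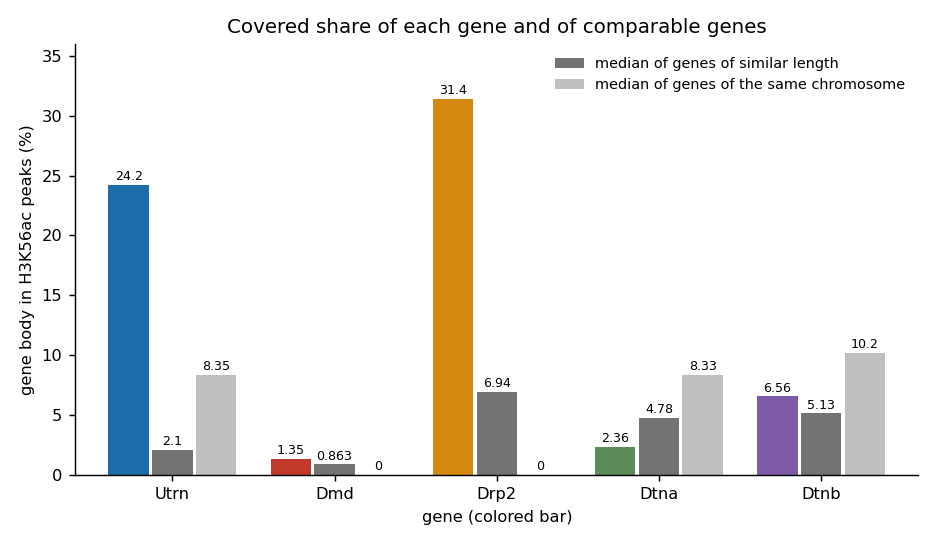
Colored bars give the share of each gene body in H3K56ac peaks (y axis, percent), dark gray bars the median of protein-coding genes within 20% of its length and light gray bars the median of its chromosome. Utrn (24.2%) and Drp2 (31.4%) stand above both medians, as does Dmd (1.35%) by a small margin, and Dtna (2.36%) stands below both.

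Peak widths differed as well. The median width was 1041 bp at Utrn (range 335 to 10610 bp), 920 bp at Dtna, 832 bp at Drp2, 748 bp at Dtnb and 670.5 bp at Dmd, against 974 bp over the whole list. Peaks of at least 5 kb numbered 8 at Utrn and 1 at Dtnb, and 0 at Dmd, Drp2 and Dtna. The widest Utrn peak, chr10:12539499-12550108, was 10610 bp. The widest peaks of the paralogs were 5594 bp at Dtnb (chr12:3570486-3576079), 3906 bp at Drp2 (chrX:134403981-134407886), 3549 bp at Dtna (chr18:23497002-23500550) and 3441 bp at Dmd (chrX:85048048-85051488). Each of these 5 widest peaks lay within 1 kb of an annotated start of its gene. For Utrn, Dmd and Dtna it was an internal start, and for Drp2 and Dtnb it was the start of the reference transcript.

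The reference transcript was the protein-coding transcript with the most exons. For Utrn that was Utrn-205, with 75 exons and a TSS at position 12869365. Utrn-201, whose start at position 12861735 is also the curated RefSeq start, proved to begin at the first base of exon 2 of Utrn-205, and the bases before it end in a splice acceptor AG, as printed above. Its annotated first intron of 96.2 kb is therefore intron 2 of Utrn-205, and the ChIP product lies 3.91 kb from the Utrn-201 start but 11.5 kb from the TSS of Utrn-205. No peak covered the Utrn-201 start itself. It fell in a gap of 459 bp between peaks, 24 bp from the nearer one. Such a position, in a gap of under 1 kb between 2 peaks, was held by 1.02% of the reference TSSs of protein-coding genes, and 57.7% of them lay in a peak.

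At the 5′ end of Utrn, 11 peaks lay within 10 kb of the reference TSS, with widths from 358 to 4528 bp and a median of 820 bp. The promoter peak (chr10:12866223-12870069, 3847 bp) reached from 0.704 kb upstream to 3.14 kb downstream of the TSS and also covered the starts of the second cluster, Utrn-211, 1.19 kb downstream. Farther into intron 1 followed peaks of 582, 776 and 820 bp. Beyond exon 2 lay peaks of 358 and 938 bp and then the 4528 bp peak chr10:12855343-12859870. That peak held the whole ChIP product, 1955 bp from its edge nearer the promoter and 2399 bp from the other, and both AP-1 matches printed above, 11116 and 11185 bp from the TSS. Upstream of the gene there were 4 peaks of 377 to 2005 bp between 5.38 and 10.1 kb from the TSS.

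The peaks of Utrn were densest in its first 3 introns. These span 117 kb, held 36 peaks, were covered to 70.8% and contained 70.3% of all covered bases of the gene. From 10 to 80 kb downstream of the TSS, the covered share per 10 kb stayed between 75.5% and 99.3%, and it then fell to 21.8% from 80 to 90 kb. When peaks less than 1 kb apart were joined, 18 peaks formed a run of 52.4 kb (chr10:12787075-12839430) covered to 93.1%, and 9 formed a second run of 21.9 kb that includes the peak with the ChIP product. Of 58591 such runs in the whole list, 82 (0.140%) were as long as the first and 1.30% as long as the second. The longest runs of the paralogs were 8.05 kb at Drp2, 7.74 kb at Dmd, 5.59 kb at Dtnb and 4.46 kb at Dtna.

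Downstream of intron 3, coverage of Utrn was lower on the whole and uneven. Introns 4 to 50 were covered to 7.36% and introns 52 to 74 to 5.95%, with 7 peaks in each part, 1 of which also reached into intron 3. Within these parts, intron 65 (14.5 kb) held 3 peaks and was covered to 40.9%, and the short introns 4, 5 and 9 to 12 were each covered to 65.5% or more. Intron 51 (83.0 kb) held 7 peaks and was covered to 18.7%. It contains the starts of 2 coding transcripts, Utrn-204 and Utrn-206, 255 and 320 kb downstream of the reference TSS. The Utrn-204 start lay in a peak of 622 bp. The Utrn-206 start lay in the widest peak of the family, which reached from 1.23 kb upstream to 9.38 kb downstream of it.

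**Figure D3:**
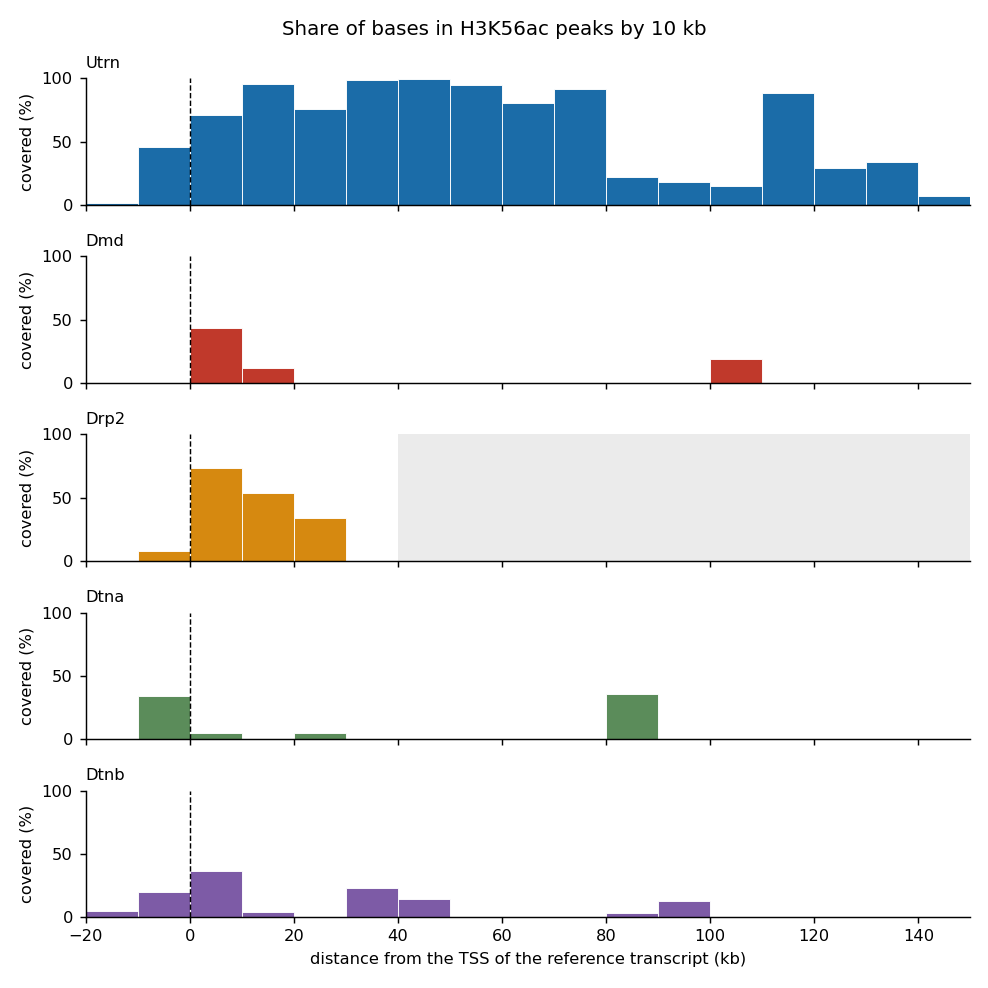
Bars give the percent of bases in H3K56ac peaks for each 10 kb (y axis) by distance from the TSS of the reference transcript (x axis, kb, 0 at the dashed line). The gray area lies beyond the last full 10 kb of Drp2. Coverage of Utrn stays at 71.2% or more from 0 to 80 kb, that of Drp2 falls from 73.7% to 53.8% and 33.6%, and Dmd, Dtna and Dtnb have isolated bars.

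None of the paralogs repeated this layout over 100 kb. In the first 100 kb of the reference transcript, peaks covered 74.7% of Utrn, 9.24% of Dtnb, 5.53% of Dmd and 4.51% of Dtna. In the rest of each gene the shares were 11.2%, 4.10%, 1.15% and 0.882%, in the same order. Drp2 is shorter than 100 kb. Its covered share was 73.7% in the first 10 kb, 53.8% in the second and 33.6% in the third, close in level to the first 10 kb of Utrn (71.2%) but ending within 23.8 kb. All 15 Drp2 peaks lay at or before intron 4, and the last 28.01 kb of the gene with 20 of its 24 exons had no peak.

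Intron 1 was then compared between the paralogs. In Utrn it is 7.02 kb long, held 4 peaks and was covered to 67.1%. The values of the paralogs were 64.0% of 18.8 kb with 12 peaks in Drp2, 23.3% of 16.5 kb with 2 peaks in Dtnb, 4.29% of 187 kb with 8 peaks in Dmd and 1.38% of 59.5 kb with 2 peaks in Dtna. Against first introns of a length within 50% of their own, Drp2 exceeded 86.9%, Utrn 83.4%, Dtnb 59.9%, Dmd 58.7% and Dtna 21.9%. Drp2 was thus the paralog closest to Utrn here, and intron 2 of Utrn, which is the first intron of Utrn-201, was covered to 72.1% over 96.2 kb with 28 peaks. Intron 1 of Utrn is too short for the next comparison, and the median of first introns near its length was 22.9%. Among 4641 protein-coding genes with a first intron of at least 10 kb, 16.9% had it covered to at least 50%. On chromosome X that was 1.13%, or 2 of 177 genes, of which Drp2 was 1.

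**Figure D4:**
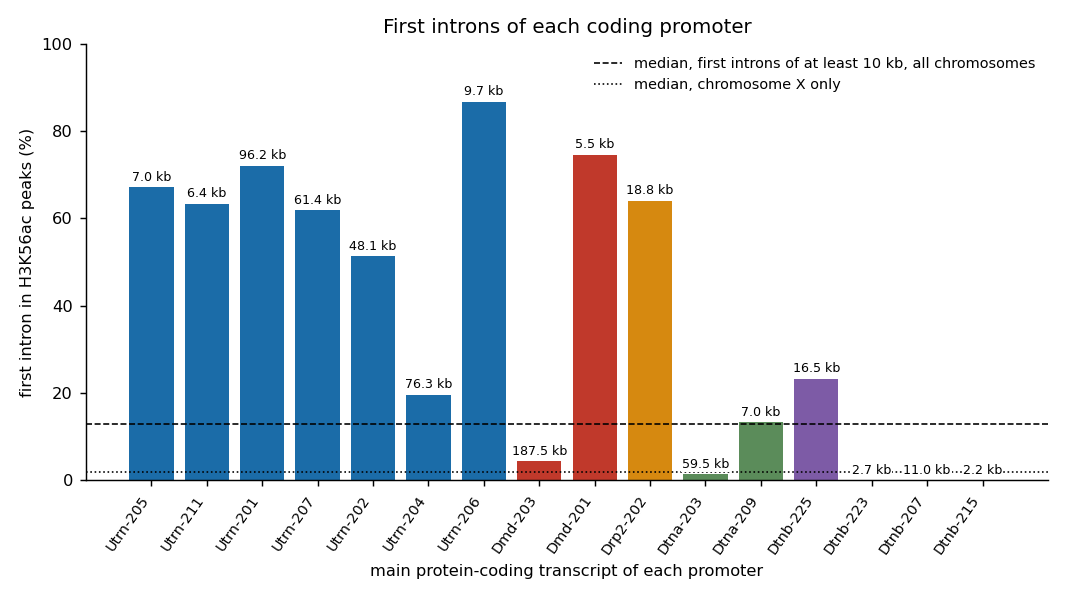
Bars give the percent of the first intron in H3K56ac peaks (y axis) for the main coding transcript of each promoter (x axis), with the intron's length above the bar. The dashed line is the median of all first introns of at least 10 kb (12.9%) and the dotted line that of chromosome X (1.97%). Introns under 10 kb, those of Utrn-205, Utrn-206 and Dmd-201 among them, are outside the sets behind these lines. Utrn-206, Dmd-201, Utrn-201, Utrn-205 and Drp2-202 are the 5 highest, and 3 Dtnb promoters are at 0%.

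The first intron depended on the promoter within a gene. For Dmd, the first intron of the full-length transcript Dmd-203 was covered to 4.29%. That of Dmd-201, the short form that starts in intron 62, was covered to 74.6% of its 5.51 kb. This value lay between those of Utrn-205 and Utrn-206 (86.8% of 9.73 kb). In short introns the promoter peak weighs heavily. At Dmd-201 it reached 3.08 kb downstream of the start, and in the Utrn-206 intron it was the only peak. Shares without the bases next to these starts were not computed. The other first introns of Utrn were covered to 63.4% from Utrn-211, 61.9% from Utrn-207, 51.3% from Utrn-202 and 19.6% from Utrn-204. Several of them overlap: those of Utrn-201, Utrn-207 and Utrn-202 end at the same exon, so their values are not independent. In Dtna the second coding promoter, Dtna-209, gave 13.2% of 6.96 kb. In Dtnb the first introns of Dtnb-223, Dtnb-207 and Dtnb-215 had no peak.

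Promoters were taken as clusters of annotated starts within 500 bp of each other, and a cluster was counted as marked where a peak lay within 1 kb. Of 9 Utrn clusters, 8 were marked, against 9 of the 24 clusters of the paralogs and 43.7% of all clusters of protein-coding genes. By gene the counts were 2 of 2 for Drp2, 3 of 9 for Dmd, 2 of 5 for Dtna and 2 of 8 for Dtnb. The second Drp2 cluster, Drp2-205, holds no coding transcript and begins at the first base of exon 2 of the reference transcript, so its start is doubtful. The X-chromosome background was 34.2%. For clusters with a coding transcript, Utrn had 7 of 7 and the paralogs 5 of 9. The share over all coding clusters was not computed, and the 43.7% and 34.2% include noncoding clusters. The paralogs had 5 of 7 without the clusters of Dtna-209 and Dtnb-207, whose 5′ ends are tagged as not found in the annotation. The unmarked clusters among those 7 were Dtnb-223 and Dtnb-215. The 5′ end of Dtnb-215 is tagged too, but its cluster also holds a noncoding start. Like Dtna-209 and Dtnb-207, both start inside later exons of the reference transcript, so every unmarked coding cluster of the paralogs had a doubtful start. The marked Utrn-201 start lay at an exon boundary as well. The unmarked Utrn cluster was that of the noncoding Utrn-203, 12.3 kb from the nearest peak. These counts depend on the number of annotated starts: 5 of the coding clusters of Utrn lie in or next to the densely covered first 2 introns, where a start anywhere is seldom far from a peak.

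At the reference starts of the paralogs, the position of the peak differed. Drp2-202, Dtna-203 and Dtnb-225 started inside peaks of 3906, 3037 and 5594 bp. The Drp2 peak ran from 0.799 kb upstream to 3.11 kb downstream and that of Dtnb from 1.98 kb upstream to 3.61 kb downstream. That of Dtna lay mostly upstream, from 2.56 kb upstream to 0.475 kb downstream. The start of full-length Dmd, in contrast, was not in a peak. Its peak, chrX:82949197-82952008 (2812 bp), began 294 bp downstream, with its whole width in intron 1, and no peak lay in the 20 kb upstream.

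**Figure D5:**
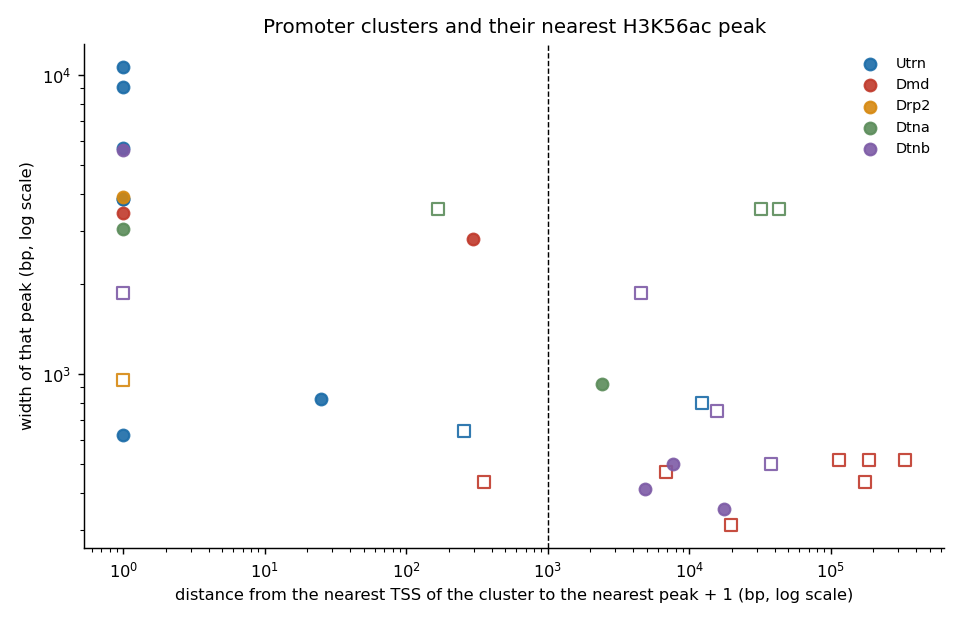
Each symbol is a promoter cluster, by the distance of its nearest TSS to the nearest peak plus 1 bp (x axis, log scale) and the width of that peak (y axis, log scale). Filled circles have a coding transcript, open squares have none, the dashed line marks 1 kb, and the symbols of Utrn-205 and Utrn-211 coincide because they share a peak of 3847 bp. The Utrn clusters lie left of the line except that of Utrn-203, and 6 Dmd clusters lie right of it.

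The internal promoters of Dmd fell into marked and unmarked ones. The cluster of Dmd-201 in intron 62, which is the position of the promoter for the widely expressed short form Dp71, had 4 starts, all inside the widest Dmd peak (3441 bp), which reached from 0.365 kb upstream to 3.08 kb downstream of the Dmd-201 start. A further pair of peaks, of 511 and 569 bp, lay within 5 kb. The Dmd-214 cluster in intron 55, the intron in which the Schwann cell form Dp116 starts, had a narrow peak of 433 bp 354 bp away. The clusters in intron 29 (Dmd-210) and intron 44 (Dmd-208), the introns in which the retinal Dp260 and Dp140 start, had none. Their nearest peaks were 115 and 336 kb away. The 3 clusters that start inside exons 40, 54 and 75, and Dmd-212 in intron 1, were unmarked too. The clusters of Dmd-214, Dmd-210 and Dmd-208 hold no coding transcript and were matched to Dp116, Dp260 and Dp140 by intron alone. Whether the promoters of these forms have peaks was therefore not shown. Both Dmd clusters with a coding transcript, Dmd-203 and Dmd-201, were marked.

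Of the 34 Dmd peaks, 29 lay in 2 groups toward the ends of the gene and 5 lay outside both. Introns 1 and 2 held 10 peaks, of which 5 lay in the first 15 kb. Between the peaks in introns 17 and 55, 1033 kb, or 45.7% of the gene with exons 18 to 55, had no peak. From intron 57 to intron 62, 272 kb, there were 19 peaks that held 61.6% of the covered bases of Dmd in 12.05% of its length. Intron 60 alone (95.4 kb) held 10 peaks of 366 to 1862 bp and was covered to 10.2%, and 5 of them formed the longest Dmd run, 7.74 kb. One of these 10, 786 bp wide, lay within 1 kb of the start of another annotated gene, Gm14770. The same held for 5 Utrn peaks, 1 at Gm48798 in intron 65, and in intron 2 a pair at Gm23044, of 545 and 6895 bp, and a pair at Gm7525, of 1377 and 1337 bp. The part of these starts in the peaks was not tested.

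Among the dystrobrevins, internal peaks lay at both annotated and unannotated positions. The widest Dtna peak lay 167 bp from the start of Dtna-210, 81.3 kb into the gene, and contained a curated RefSeq start. That RefSeq start is the first base of exon 3 of the reference transcript, so like the Utrn-201 start it lay at an exon boundary. Dtna-209 had its nearest peak 2.40 kb away, and its 5′ end is tagged as not found in the annotation. In Dtnb the largest internal peaks, of 2742 bp in intron 4 and 1864 bp over exon 20, lay 37.7 and 207 kb downstream of the TSS, and the second of them covered the start of the noncoding Dtnb-220. The nearest peaks of the annotated starts of Dtnb-223, Dtnb-215 and Dtnb-207 were 4.84, 7.61 and 17.7 kb away. The 5′ ends of Dtnb-215 and Dtnb-207 are tagged as not found as well. These 3 starts and that of Dtna-209 lay inside later exons of the reference transcript.

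RefSeq annotates starts that GENCODE does not place at these genes. A predicted Dmd start 134 kb upstream of the reference TSS, outside the region searched, lay in a peak of 2438 bp. A curated Dtna start 105 kb upstream lay in a peak of 741 bp. Another predicted Dmd cluster, 2.44 kb upstream, had no peak within 1 kb. Inside the regions, 6 of 8 RefSeq clusters of Utrn and 8 of 12 of the paralogs were marked. The share of RefSeq clusters marked over all genes was not computed.

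The base composition of the marked promoters varied widely. The marked promoters of Utrn-205 (75.2% GC, observed to expected CpG ratio 0.940) and Dtnb-225 (73.2%, 0.960) were rich in CpG. The ratio was lower in Dmd-201 (60.0%, 0.322) and Drp2-202 (55.2%, 0.264), against a median of 54.4% and 0.4995 over 21846 coding promoters. These values depended on the window: from 250 bases before to 50 after the main TSS, the ratio was 0.605 in Dmd-201 and 0.527 in Drp2-202, against a median of 0.560. The Utrn-206 promoter (56.8%, 0.219) lay inside the widest peak. The Dmd-203 promoter, with the peak beginning beyond it, had 45.2% GC and a ratio of 0.160.

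The N-box letters occurred before Utrn-205 and Dtna-209, and in 13.7% of all coding promoters of the same length. AP-1 matches occurred in 4 of the 9 paralog promoters, in none of the 7 of Utrn, and in 5.86% of all. The 4 were Dmd-203, Dtnb-225, Dtnb-223 and Dtna-209. Of these, Dtnb-223 and Dtna-209 start inside later exons of the reference transcript, so their promoters are doubtful. The E-box occurred in 3 paralog promoters, Drp2-202, Dtnb-223 and Dtnb-207, and in 12.2% of all. Dtnb-207 starts inside a later exon too. The motif counts also depended on the window. In the window around the main TSS, AP-1 matches occurred in 3 paralog promoters, without Dtnb-225, and in none of Utrn. The N-box letters there occurred in 2 Utrn promoters and 1 paralog promoter. The E-box occurred in 1 Utrn promoter and 4 paralog promoters, without Drp2-202. Over all coding promoters, this window held AP-1 matches in 6.58%, the N-box letters in 18.1% and the E-box in 15.6%. Over introns, the covered bases of intron 2 of Utrn held 0.389 AP-1 matches per kb (27 matches) and the uncovered bases 0.447 (12 matches). In intron 1 of Drp2 these were 0.498 (6 matches) and 0.148 (1 match), in intron 1 of Dmd 0.498 (4 matches) and 0.396 (71 matches). Over all first introns of at least 10 kb they were 0.310 and 0.322. Repeats made up 24.7% of the covered and 37.2% of the uncovered bases of intron 2 of Utrn, and 32.1% and 57.02% in intron 1 of Drp2. Reads with a single alignment had been kept, and the part of repeats in the gaps between peaks was not tested.

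A position 11.5 kb downstream of the reference TSS, the distance of the ChIP product in Utrn, lay in a peak in 11.3% of 10107 protein-coding genes of at least 20 kb. Among the paralogs, Drp2 had a peak of 665 bp there and Dtnb one of 410 bp. The nearest peaks were 1101 bp away in Dmd and 11.1 kb away in Dtna. The Utrn peak at that distance, 4528 bp, was wider than the peaks of Drp2 and Dtnb together.

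Of 2279 other protein-coding genes at least 100 kb long, those most like Utrn in 3 covered shares (gene, intron 1, first 100 kb) were Agap1, Myo1e, Sgms1, Fto and Lpp. Their first 100 kb were covered to 61.2%, 64.1%, 74.8%, 55.5% and 69.4%, and their genes to between 27.4% and 41.2%. By the same distance Dtnb ranked 847, Dmd 1399 and Dtna 1532. No other protein-coding gene had a start in the flanks of Utrn, Dmd, Dtna or Dtnb. The flank of Drp2 held the start of Taf7l, 46422 bp from the nearest peak. Inside Dmd lies the protein-coding gene Tsga8, whose start was 252010 bp from the nearest peak.

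The partners of these proteins in the dystroglycan complex were listed for comparison: dystroglycan, the sarcoglycans, sarcospan, the syntrophins, Nos1 and the laminin gene Lama2. A promoter peak was present at 14 of the 15, against 65.4% of all protein-coding genes, and the exception was Sntg1, the gene of gamma-1-syntrophin, without any peak. The median covered share of the 15 genes was 12.8%, against 7.82% over all protein-coding genes. The highest were Sspn, which encodes sarcospan (79.3%), and Dag1, which encodes dystroglycan (76.3%), both higher than Utrn and its paralogs. Sspn (33.6 kb) and Dag1 (59.3 kb) are much shorter than Utrn, and the values of this list were not matched for gene length.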

How the data were processed

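The series holds H3K56ac ChIP-seq and input libraries of Control and Sirt6mKO MuSCs, sequenced on an Ion Torrent instrument. Per the study's methods, the authors aligned reads to mm10 with bowtie 1.1.2, with multiply aligned reads and duplicates discarded, called peaks with MACS2, removed blacklisted regions and merged overlapping peaks. The deposited BED list of 105600 intervals was used as it is. Its score column, as deposited, is 0 in every row and holds no measurement, and 0 columns give values per sample. No interval overlapped another or ran past a chromosome end.

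Intervals were compared with GENCODE release M21 and with the RefSeq annotation and genome of GRCm38.p6 in Python 3.11.15 with numpy 2.4.6 and drawn with matplotlib 3.10.9. An overlap was at least 1 bp. A covered share is the percent of bases inside peaks. The functions were tested on simulated intervals. The planned test between genotypes needs counts per sample and was not run. Named items were the 5 genes, their coding promoters and widest peaks, Utrn peaks within 10 kb of the TSS, genes starting in a flank, the extreme pathway genes and the 5 genes most like Utrn. Internal Dmd and Dtnb peaks outside this rule were named after their values were seen. One marker list is not reported here. The members, lists and comparisons were chosen with earlier results of these data known. Alternatives varied the transcript, the distance to a TSS, the flanks, the shortest interval and the joining of intervals. The runs of joined peaks, and the alternatives with RefSeq starts, with starts inside exons left out and with autosomes only, were chosen after seeing the data.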

Additional observations from a re-analysis of the deposited data

How the results depend on the processing

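Of 45 alternative values for 11 results, 42 stayed within a set limit around the main value and 3 moved. The limit was 1.5 times for a count, and for a share the Wilson 95% interval over 1 kb windows or compared genes. These limits are not errors and could miss large shifts. The interval for intron 1 of Utrn rested on 7.02 kb and was wide, and promoter clusters were judged by count and not by share. With protein-coding transcripts, 5 paralog promoter clusters were marked instead of 9, and with intervals under 1 kb apart joined, 66 peaks remained of 129, both because fewer items were counted. Without flanks, the covered share of Drp2 rose from 18.4% to 31.4%, since little of its flanks was covered, and Drp2 then exceeded Utrn (24.2%), which was higher with flanks (23.3%). The covered share of intron 1 ranged from 50.1% to 69.0% in Utrn and from 57.7% to 80.9% in Drp2, which was the highest paralog under each of the 4 alternatives. Without the 3 kb next to the TSS, Drp2 (57.7%) exceeded Utrn (50.1%), and with joined intervals it did too (80.9% against 69.0%), so the order of the pair depended on the setting. The percentile of Utrn ranged from 89.2 to 93.2. The share of paralog clusters marked rose from 37.5% to 66.7% (8 of 12) with RefSeq transcripts, while that of Utrn fell from 88.9% to 75% (6 of 8), so the contrast of Utrn with its paralogs narrowed. Without starts not found or inside later exons, 7 of 8 Utrn and 8 of 16 paralog clusters were marked. No share over all genes was computed for RefSeq clusters or for clusters without such starts.

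No paired analysis was possible because no library has a value of its own in the list, and for the same reason the comparison of Sirt6mKO with Control, with its replicate block, left-out replicates, DESeq2 fit and filter, was not run. Depth is unknown, so a missing peak is not evidence that H3K56ac is absent, and a width cannot be read as strength. Intervals of the covered shares cover counting over windows only, which are not replicates.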
